A study of Mus musculus with 3 samples.

Results

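The 7 imprinted genes H19, Igf2, Igf2r, Meg3, Dlk1, Peg3 and Peg10 lie at 5 loci of the mouse genome and were examined in embryos at the 2-cell stage. They were chosen by name, and each was measured over a fixed span on mm9, the mouse build of the deposited coverage. All 7 spans were found in the files of all 3 litters, beside 272592 windows of 10 kb that tile the nuclear genome. RNA came from litters of 2-cell embryos collected at embryonic day 1.5, and each library is 1 litter. The mothers were of mixed strain with C57/Bl6J, were LSD1 FL/FL (homozygous for a floxed allele of a histone demethylase gene) and were ZP3::Cre negative, so the oocyte-specific recombinase was absent. One label gives the fathers as wild type CB6 and another as C57/Bl6J. With 1 group of 3 litters there is no contrast between conditions. The coverage shows neither the parental allele nor the strand of a read. Embryos of a litter are pooled, so fewer embryos with a transcript and less RNA per embryo cannot be told apart. Markers of the embryo and of other cells were not analysed here, because gene positions on mm9 were given for the 7 genes only.

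An imprinted gene is transcribed mainly from the allele of 1 parent, as set by DNA methylation that differs between egg and sperm. In later tissues H19, Meg3 and Igf2r are expressed mainly from the maternal allele, and Igf2, Dlk1, Peg3 and Peg10 mainly from the paternal allele. Around the 2-cell stage the mouse embryo degrades RNA stored by the oocyte and starts to transcribe its own genome. A transcript found at this stage can therefore be stored or newly made. Several of these genes are known for later roles in growth of the fetus and placenta.

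Igf2r had the highest level of the 7 genes in every litter. Igf2r encodes the receptor that takes up the growth factor IGF2 and carries it to the lysosome. Levels are RPKM, the number of 72-base alignments per kb of the whole span, introns included, per 1000000 nuclear alignments of the litter. Igf2r (chr17:12875200-12962600, 87.401 kb) had 2.15, 1.79 and 2.18 RPKM in litters 1 to 3, or 6404, 5075 and 7721 alignments. The mean was 2.04 RPKM ± 0.219 (SD, n = 3), and the 3 litters lay close together. It was the only 1 of 7 members at or above 1 RPKM in every litter. Among all 10 kb windows of the nuclear genome 3.17% reached that level in every litter, and among windows as long as the Igf2r span 6.14% did. Igf2r held 88.6%, 83.3% and 97.4% of all alignments on the 7 members in litters 1 to 3. Its length adds to this share, since the other spans are 2.701 to 30.801 kb long.

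**Figure D1:**
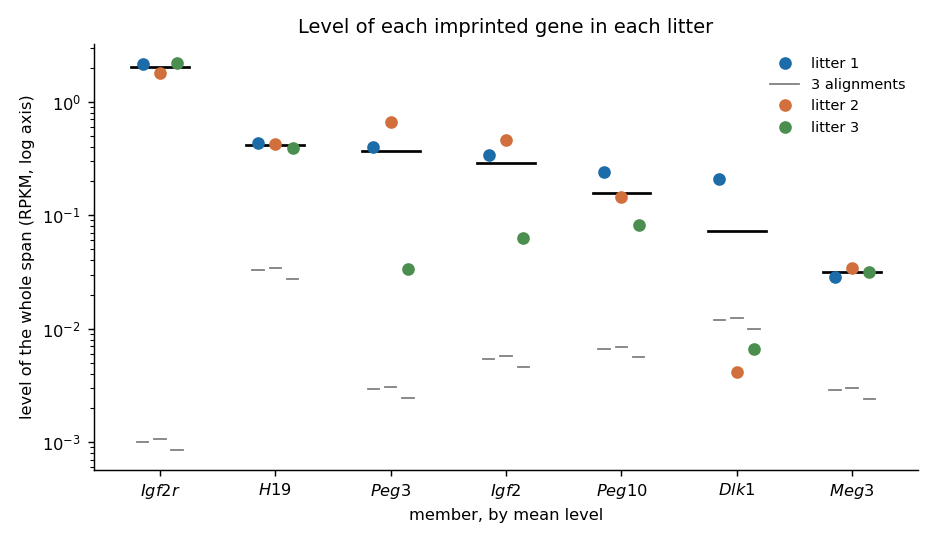
Level of each imprinted gene on a log axis of RPKM, with 1 point per litter, a black line at the mean of the 3 litters and short grey lines at the level that 3 alignments would give in each litter. Igf2r lies between 1.79 and 2.18 RPKM, above every other member in each litter, and Dlk1 lies under the grey lines in litters 2 and 3.

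The other members followed in the order H19, Peg3, Igf2, Peg10, Dlk1 and Meg3 by mean level of the span. H19 (chr7:149761400-149764100) is a long non-coding RNA gene. It had 0.435, 0.422 and 0.393 RPKM in litters 1 to 3, a mean of 0.417 ± 0.0215 (SD, n = 3). Its values in the 3 litters were nearly equal and lay below those of Igf2r in 3 of 3 litters. Peg3 (chr7:6655000-6685000), a zinc finger gene, had 0.402, 0.660 and 0.0338 RPKM, with a mean of 0.365 ± 0.315 that was 0.218 without litter 2. Igf2 (chr7:149836600-149852800), the gene of the fetal growth factor IGF2, had 0.339, 0.459 and 0.0625 RPKM, with a mean of 0.287 ± 0.203. Peg3 and Igf2 were both lowest in litter 3 and highest in litter 2. Peg10 (chr6:4697300-4710600), a gene derived from a retrotransposon and needed in the placenta, had 0.241, 0.146 and 0.0817 RPKM, with a mean of 0.156 ± 0.0801. Dlk1 (chr12:110690600-110698000), which encodes a transmembrane protein related to Notch ligands, had 0.207, 0.00417 and 0.00668 RPKM, with a mean of 0.0725 ± 0.116. Its mean rests on litter 1, without which it was 0.00542. Meg3 (chr12:110779200-110810000), a long non-coding RNA gene, had 0.0286, 0.0340 and 0.0313 RPKM, with a mean of 0.0313 ± 0.00270, so its litters too were nearly equal.

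The order below Igf2r was not firm. Of the 6 pairs of neighbours in the order, the values of Igf2r and H19 did not overlap between litters, and those of the other 5 pairs did. Log2 ratios, with 0.1 RPKM added to each level, were tested by exact two-sided sign flips over litters. For Igf2r over H19 the mean log2 ratio was 2.05 ± 0.18, higher in 3 of 3 litters, and the exact p was 0.25. For Peg10 over Dlk1 it was 0.72 ± 0.54, higher in 3 of 3 litters, again with an exact p of 0.25. This is the smallest p that 3 litters allow, so no ratio here can pass 0.05. The other 4 pairs gave exact p of 0.50 to 1.00. Within litters, H19 came after Igf2r in litters 1 and 3 and behind Peg3 and Igf2 in litter 2. The order of means was the same with distinct start positions, in which each start position counts a single time per litter, and with both other scalings.

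Span length shapes these values, because introns count in full. Per kb of the longest annotated transcript in GENCODE M21 (8887 bases for Igf2r, 2286 for H19), with all alignments of the span counted, Igf2r had 20.1 ± 2.15 RPKM and Peg3 had 1.26 ± 1.09. On this scale Igf2 followed at 0.984 ± 0.697, H19 at 0.493 ± 0.0254, Peg10 at 0.312 ± 0.160, Dlk1 at 0.115 ± 0.185 and Meg3 at 0.0663 ± 0.00572. H19 thus moved from rank 2 to rank 4 while Igf2r stayed first and Meg3 last. Covered bases of Igf2r were 20549, 20476 and 14050 in litters 1 to 3, more than the 8887 of its transcript. Part of its covered sequence therefore lay outside that transcript, and 20.1 RPKM is not a level of the transcript alone. The annotation is of GRCm38 and gave lengths and strands only, since its positions are not those of mm9.

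The start regions of Igf2r, the highest member, and of Dlk1, which was under the limit of detection in litters 2 and 3 only, are shown. In both of these spans the first kb on the 5′ side was almost empty. This was not particular to them, as that kb held 0% in each litter in Igf2, Meg3 and Peg3. In Peg10 it held 0%, 0% and 4.55% in litters 1 to 3. In H19, whose whole span is 2.701 kb, it held 61.2%, 54.1% and 45.3% of the alignments. The sequences are the 250 bases before the RefSeq start on GRCm38.p6, 5′ to 3′ on the strand of the gene. Capitals mark each CG dinucleotide, the site of DNA methylation. For Igf2r this start differs from the gene start in GENCODE M21. The Igf2r sequence is chr17:12769707-12769956 on the minus strand and the Dlk1 sequence is chr12:109452573-109452822 on the plus strand.
Igf2r: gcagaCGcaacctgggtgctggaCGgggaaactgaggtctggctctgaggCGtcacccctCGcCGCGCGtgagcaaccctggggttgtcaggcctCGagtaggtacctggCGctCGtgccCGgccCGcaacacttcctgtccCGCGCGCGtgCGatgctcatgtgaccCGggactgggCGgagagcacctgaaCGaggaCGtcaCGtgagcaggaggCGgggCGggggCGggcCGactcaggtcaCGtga
Dlk1: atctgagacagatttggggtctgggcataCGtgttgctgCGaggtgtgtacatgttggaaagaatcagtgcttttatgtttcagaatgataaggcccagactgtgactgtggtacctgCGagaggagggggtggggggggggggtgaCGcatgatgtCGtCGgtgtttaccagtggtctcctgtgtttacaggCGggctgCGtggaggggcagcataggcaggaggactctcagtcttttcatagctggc
The Igf2r sequence holds 27 CG dinucleotides, and 8.56% of 32851 RefSeq start regions of this length hold as many or more. The Dlk1 sequence holds 8, which 43.0% reach. Of the 7 members 5 matched the table, with 9 start regions in all. The 4 start regions of Igf2 hold 1 to 22 CG dinucleotides, the 2 of Meg3 hold 0 and 10, and that of Peg3 holds 8, against a median of 6 over all start regions. In the span of Igf2r, the first kb on the 5′ side held 0.281%, 0.0394% and 0% of the alignments in litters 1 to 3. In that of Dlk1 it held 0% in each litter, but the deepest bins lay just past it. The bins of 200 bases that start 1 and 1.2 kb from the 5′ edge held 14.9 and 28.1 alignments in litter 1, of 52. The first of 5 equal parts of the Dlk1 span held 77.6% ± 25.4 of its alignments (SD, n = 3). In litters 2 and 3 this share rests on totals of 1 and 2 alignments.

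At the other end of the gene, Igf2r had its deepest coverage. The last kb of the span, which is its 3′ edge on the annotated minus strand, held 29.1%, 13.8% and 41.4% of the Igf2r alignments in litters 1 to 3. The bin of 200 bases with the highest mean level (chr17:12875400-12875599) held 1051, 403.7 and 1721 alignments. The next bin toward the edge (chr17:12875200-12875399) held 519.5, 177.9 and 851.9. Both bins were highest in litter 3 and lowest in litter 2. Without that kb the span still had 1.54, 1.56 and 1.29 RPKM. A bin counts summed coverage divided by 72, so an alignment that crosses a bin edge counts in part. Split into 5 equal parts from 5′ to 3′, the span held 12.2% ± 7.73, 10.1% ± 6.39, 25.1% ± 6.99, 8.11% ± 3.83 and 44.5% ± 15.2 of its alignments.

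Along the whole Igf2r span, the last kb included, the litters covered partly different places. Of 438 bins of 200 bases, 145 held at least 10 alignments in some litter, and 24 of these did so in all 3. In 64 of the 145, at least 90% of the summed level came from 1 litter. The bin at chr17:12926200-12926399 held 2.93, 392.6 and 647.9 alignments in litters 1 to 3. Covered bases, those under at least 1 alignment, made up 23.5%, 23.4% and 16.1% of the span. In litter 3 fewer bases were covered but the mean depth over them was higher, at 39.6 against 22.4 in litter 1 and 17.8 in litter 2. Bases covered in all litters were 31.8%, 31.9% and 46.5% of those covered in litters 1 to 3. Airn, a non-coding RNA gene, overlaps Igf2r in the annotation, and without strand its alignments cannot be told apart from those of Igf2r introns.

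**Figure D2:**
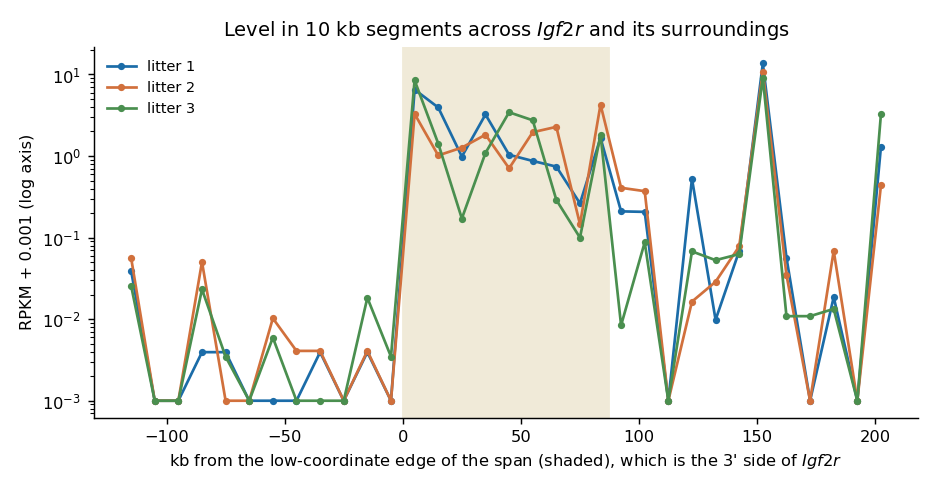
Level in segments of 10 kb across the Igf2r span (shaded) and the sequence on both sides, on a log axis of RPKM with 0.001 added, against the distance from the low-coordinate edge, with 1 line per litter. The level drops at the low-coordinate edge, where the gene ends, and on the other side 1 segment stands at 9.15 to 13.7 RPKM.

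The edge of transcribed sequence on the 3′ side of Igf2r was sharp. The neighbouring 87.401 kb on that side held 3, 14 and 12 alignments in litters 1 to 3. The same length on the 5′ side, where Mas1 is the next gene, held 5010, 3806 and 3824. Of the alignments on both sides together, 92.7%, 91.7% and 96.6% lay in the segment 60 to 70 kb from the 5′ edge. Only 348, 348 and 349 bases of it were covered. Whether reads of other places align there was not tested, since no start position in it had 50 or more alignments in every litter. Over both flanks the level was 0.686 ± 0.151 RPKM (SD, n = 3), and without that segment, a choice made after seeing the data, it was 0.0481 ± 0.0249. Igf2r was 3.03 times as dense as its full flanks by summed alignments and 42.4 times as dense by mean level once that segment was left out.

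H19 had few alignments, but they were spread over most of its span and found at the same amount in each litter. The 2701 bases of H19 held 40, 37 and 43 alignments in litters 1 to 3, from 39, 36 and 43 distinct start positions. Alignments whose start position another of the same litter already had, called repeated here, were thus 2.50%, 2.70% and 0% of its total. In 10 kb windows with 10 to 100 alignments the median repeated share was 17.8%, 13.3% and 19.05%, and on nuclear sequence as a whole it was 72.2%, 65.0% and 74.0%. The 5th percentile of those windows was 0% in each litter, so the H19 shares lie below the median but within the range of such windows. Repeated starts become more common as depth rises.

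Covered bases of H19 were 56.8%, 53.6% and 61.4% of the span, the largest share among the members. Of 14 bins of 200 bases, 12 had coverage in all 3 litters, and no base was deeper than 5 alignments. The bin with the highest mean level (chr7:149763600-149763799) lay 0.301 kb from the 5′ edge and held 6.75, 6.96 and 6.78 alignments. The next (chr7:149763800-149763999) held 4.50, 7.13 and 5.79. Sequence of the same length on both sides of H19 had 0 alignments in each litter. Against the limit of 3 alignments that a count of 0 over the litters allows, H19 was at least 80.0-fold higher per kb than these flanks, and the 95% exact binomial interval used for the other genes starts at 64.1. The 72499 bases between H19 and Igf2 held 2, 0 and 0 alignments.

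Igf2, the other member of that locus, was covered away from its 5′ side and unequally between litters. It held 187, 241 and 41 alignments, from 141, 206 and 40 distinct start positions. The first and second of 5 equal parts from the 5′ edge had none in any litter, and the last held 50.8%, 83.7% and 87.8%. The bin at chr7:149838800-149838999 held 7, 76.7 and 5.18 alignments, highest in litter 2. A bin at chr7:149844600-149844799, nearer the middle, held 64.8, 0 and 1.00, so it belonged almost wholly to litter 1. The bin at chr7:149839600-149839799 held 58.8, 29.3 and 1.88, so litters 1 and 2 shared it. Of the 8 bins with at least 10 alignments in some litter, 6 drew at least 90% of their level from 1 litter. Bases at a depth of 10 or more carried 77.9% and 66.4% of the Igf2 coverage in litters 1 and 2, and there were none in litter 3. The covered share differed less, at 13.4%, 14.9% and 12.6% of the span.

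On the log2 scale with 0.1 RPKM added, H19 over Igf2 was 0.29, -0.10 and 1.60 in litters 1 to 3. The mean was 0.60 ± 0.89, above 0 in 2 of 3 litters, and the exact sign-flip test gave p = 0.50 (0.75 after Benjamini-Hochberg adjustment over the 3 ratios tested). Without litter 3 the mean was 0.09. The flanks of Igf2 held 1, 1 and 2 alignments. Igf2 was 234.5 times as dense per kb by summed alignments, with a 95% exact binomial interval of 91.0 to 864.2. Without litter 2 the ratio was 152 and without litter 3 it was 428, values chosen after the data were seen, as are those without a litter for Meg3 and Peg10 below. These intervals cover counting error only, as amplified reads are not independent molecules. Mir483 and Igf2os overlap Igf2 and Mir675 overlaps H19 in the annotation, and none of these can be separated here.

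**Figure D3:**
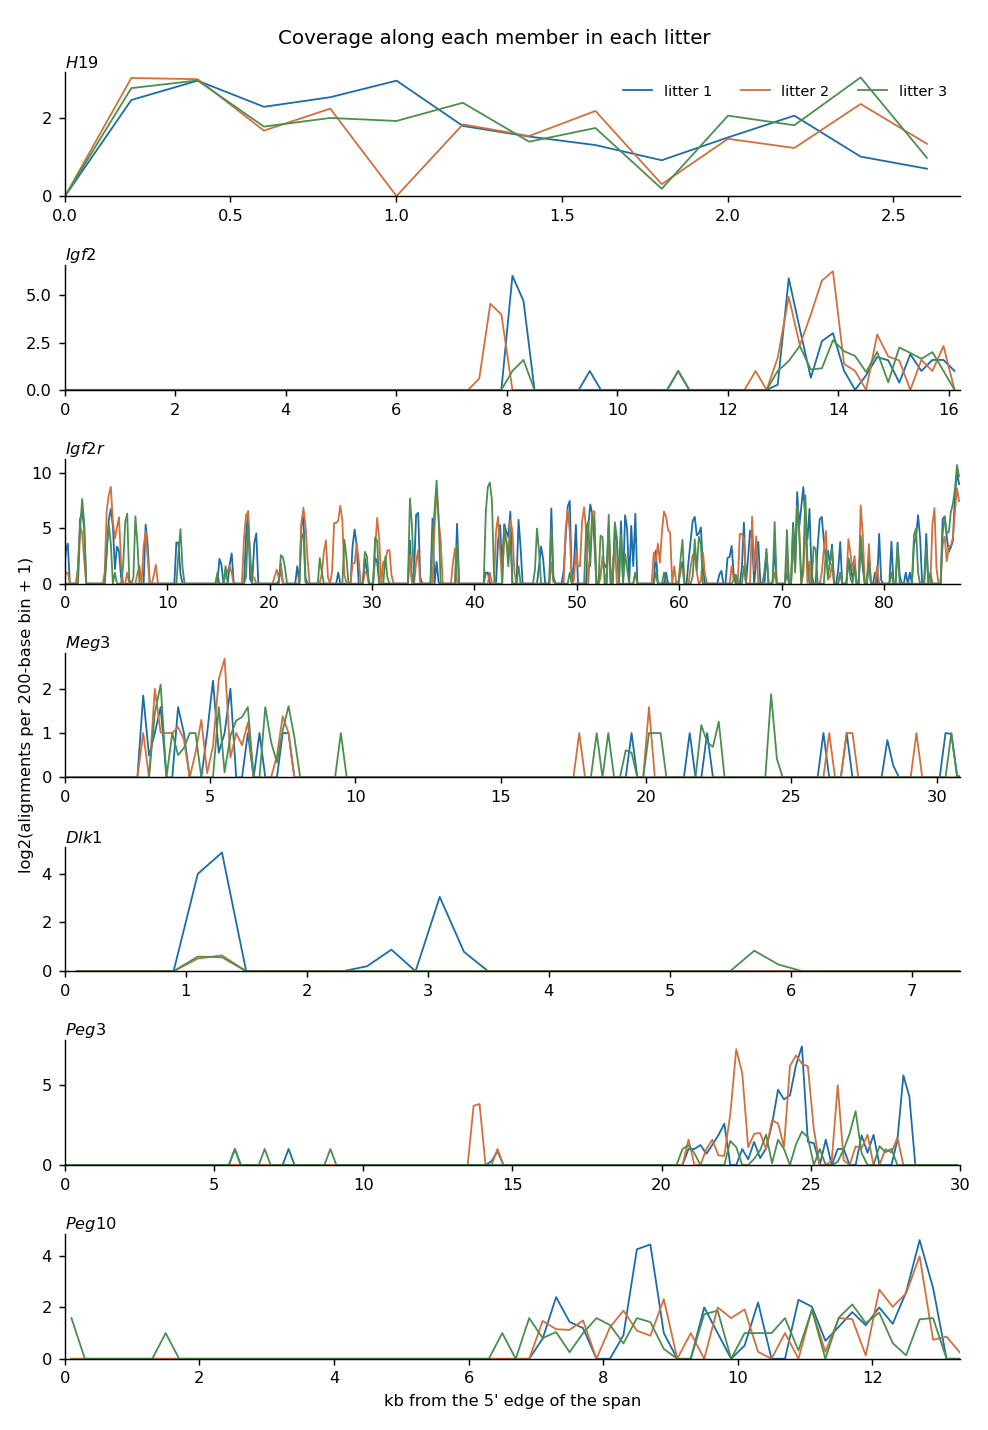
Alignments per bin of 200 bases along each member, as log2 of the count plus 1, against the distance in kb from the 5′ edge of the span, with 1 line per litter. H19 is covered along its length in all litters, Igf2, Peg3 and Peg10 mainly in their 3′ parts, and Dlk1 almost only in litter 1.

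At the locus on chromosome 12, Meg3 resembled H19 in its even litters, at a lower level. Meg3 held 30, 34 and 39 alignments, from 30, 33 and 39 distinct start positions, over 30801 bases. No base was deeper than 5 alignments, and covered bases were 5.93%, 6.49% and 7.84% of the span. Of its alignments 60.0%, 65.0% and 38.5% lay in the first of 5 parts from the 5′ edge, but the first kb had none. The bin at chr12:110784600-110784799 held 1.00, 5.38 and 0.0833 alignments, and that at chr12:110782400-110782599 held 2.00, 1.01 and 3.26. The places differed although the totals were close: 225 of the 4941 bases covered in some litter, or 4.55%, were covered in all. Its flanks held 5, 0 and 2 alignments, which makes Meg3 29.4 times as dense by summed alignments (95% exact binomial interval 13.8 to 75.0). That ratio was 73.0 without litter 1 and 19.7 without litter 2. Mir1906-1, Mir770 and Rtl1 overlap Meg3 in the annotation and cannot be separated from it here.

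Dlk1 was detected above the limit in litter 1 alone. It held 52, 1 and 2 alignments, and 3 is the limit that a count of 0 allows. In litter 1 they formed 3 runs of covered bases, and the bin at chr12:110691800-110691999 held 28.1 of them, against 0.569 in litter 2 and 0.486 in litter 3. The single alignment of litter 2 and 1 of the 2 in litter 3 lay in the same 2 bins near the 5′ edge, and 66 bases there were covered in all litters. At this depth a difference between litters 2 and 3 was not detectable. The flanks of Dlk1 held 1, 1 and 5 alignments.

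The ratio of Meg3 to Dlk1 had no stable direction. On the log2 scale with 0.1 RPKM added it took the values -1.25, 0.36 and 0.30 in litters 1 to 3, with a mean of -0.20 ± 0.92 and an exact sign-flip p = 1.00. With 0.01 RPKM added the mean was 0.15, and without litter 1 it was 0.33, so the sign depends on both. The 81199 bases between the genes held 3, 7 and 201 alignments. In litter 3, 183 of these lay in 3 bins of 200 bases, and the bin at chr12:110745601-110745800 alone held 131.2. That bin was chosen after its value was seen.

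Peg3 and Peg10, both paternally expressed in later tissues, showed coverage toward the 3′ side. Peg3 held 410, 642 and 41 alignments, of which 87.7%, 59.3% and 63.4% lay in the last of 5 parts. The bin at chr7:6660200-6660399 held 169.3, 79.8 and 3.25 alignments, and the next, chr7:6660400-6660599, held 73.6, 114.0 and 1.43. That at chr7:6662400-6662599 held 0, 149.4 and 1.17. Litters 1 and 2 were thus deep at partly the same and partly different places, and litter 3 was low at each. Bases at a depth of 10 or more carried 79.1% and 91.0% of the Peg3 coverage in litters 1 and 2, and none reached that depth in litter 3. The flanks held 70, 223 and 163 alignments, with most on the side of Zim1 (61, 198 and 134). Peg3 was denser than its flanks in litters 1 and 2 and less dense in litter 3, at 0.0338 against 0.0671 RPKM, and the exact sign-flip p was 0.50.

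Peg10 held 109, 63 and 44 alignments, from 94, 60 and 44 distinct start positions. Its covered share was 18.8%, 19.7% and 18.3% of the span, nearly equal in the 3 litters although the levels differed by up to 2.95 times. The last of 5 parts held 47.7%, 60.3% and 43.2%. The bin at chr6:4709900-4710099 held 23.6, 14.9 and 1.90 alignments, and the bin at chr6:4705900-4706099 held 20.9, 0.861 and 1.69. The flanks held 1, 2 and 0 alignments, so Peg10 was 144.0 times as dense by summed alignments (95% exact binomial interval 48.6 to 704). Without litter 1 the ratio was 107, without litter 2 it was 306 and without litter 3 it was 115. In the annotation Sgce is the next gene on the 5′ side.

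**Figure D4:**
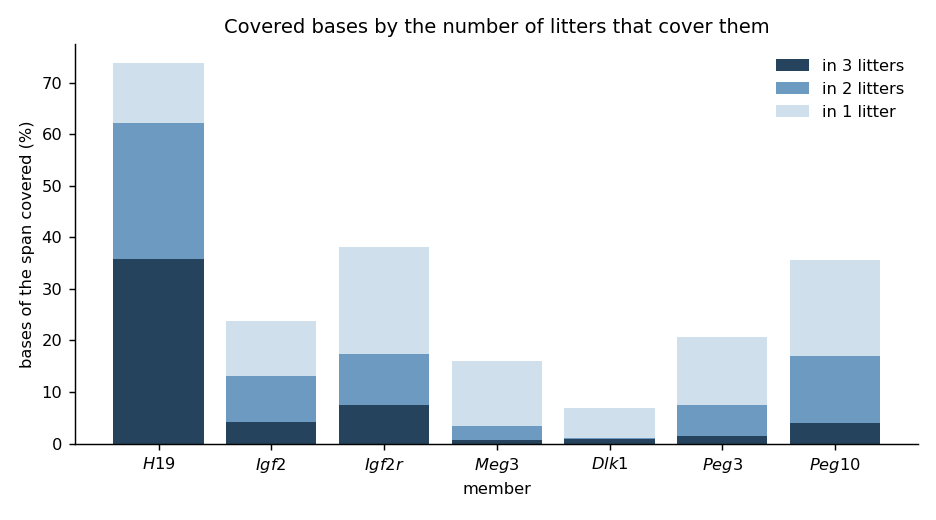
Share of the bases of each span that were covered in 1, 2 or all 3 litters, as stacked bars in percent. H19 has 35.8% of its bases covered in all litters, and Meg3 has 0.730%.

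Across the members, agreement on covered places went from 48.5% of the H19 bases covered in any litter to 4.55% of those of Meg3. Between them lay Igf2r at 19.5%, Igf2 at 17.9%, Dlk1 at 12.9%, Peg10 at 11.2% and Peg3 at 6.82%. Depth and span length differ between members, and their part in this share was not tested. Over covered bases the mean depth in litter 3 was 1.16 to 1.87 alignments for H19, Igf2, Meg3, Peg3 and Peg10, whose totals in that litter were 39 to 44 alignments. In litters 1 and 2 the same 5 genes held 30 to 642.

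The spread between litters differed among genes of like depth. The coefficient of variation over litters was 5.16% for H19 and 8.62% for Meg3, against 51.3% for Peg10 and 160% for Dlk1. Windows of the genome as long as H19, with a mean of 10 to 100 alignments, had a median of 118%, and 0.154% of them had a value at or below that of H19. For windows as long as Meg3 the median was 85.2%, and 0.931% were at or below Meg3. Igf2r had 10.7%, where 10.3% of windows of its length with 1000 to 10000 alignments were at or below. Igf2 had 70.8% and Peg3 86.2%, beside medians of 68.1% and 63.8% in windows of their lengths with 100 to 1000 alignments. These are descriptions, and with 3 litters a coefficient of variation is itself uncertain. For H19 and Meg3 nothing was left of the spread after counting variance was subtracted.

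**Figure D5:**
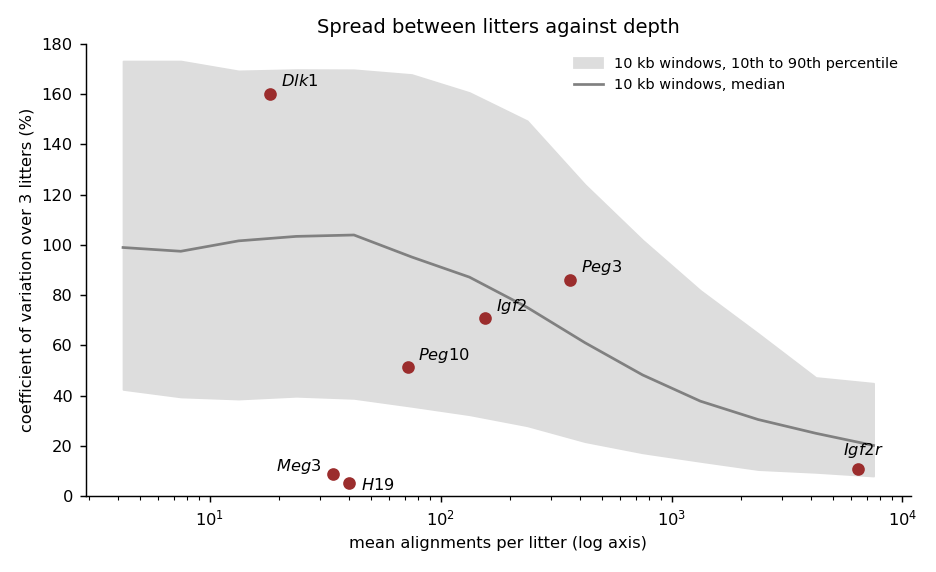
Coefficient of variation of the level over 3 litters, in percent, against the mean number of alignments per litter on a log axis, with 1 point per gene, the grey line at the median of 10 kb windows and the band from their 10th to 90th percentile. H19 (5.16%) and Meg3 (8.62%) lie under the band and the other members lie within it.

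Set beside windows of their own length, members differed widely in rank. The mean level of Igf2r was reached by 3.29% of such windows, that of H19 by 6.67%, that of Igf2 by 12.8% and that of Peg3 by 13.2%. Peg10 was reached by 16.0%, Dlk1 by 18.1% and Meg3 by 33.9%. Within litters the share moved most for Dlk1, at 10.4%, 46.2% and 30.5% in litters 1 to 3. It was 12.0%, 9.70% and 27.4% for Peg3, and 30.9%, 33.0% and 28.2% for Meg3. The Dlk1 share was larger than that of Meg3 in litters 2 and 3. There it rests on 1 and 2 alignments, too few to order the genes. At a lower limit of 0.1 RPKM in every litter, 2 of 7 members passed, H19 and Igf2r, where 9.37% of 10 kb windows did. At 0.5 RPKM only Igf2r passed, beside 4.75% of windows, and at 2 RPKM 0 of 7 passed, beside 1.93%. In 3 of 3 litters, 5 of 7 members were denser than their flanks, Dlk1 and Peg3 being the exceptions, where 11.9% of 10 kb windows exceeded the mean of their neighbours in every litter. These shares are not of like measure, since the windows are fixed tiles and the members are gene spans with flanks of their own length. Empty windows cannot exceed their neighbours, and 25.5% of windows as long as Peg10 had no alignment in any litter. Each of the 5 members gave an exact sign-flip p = 0.25, or 0.35 after Benjamini-Hochberg adjustment over the 7 genes.

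Grouped by the parent whose allele is expressed later, the median of the 3 maternally expressed genes was 0.435, 0.422 and 0.393 RPKM in litters 1 to 3. H19 is the median gene in each litter. The median of the 4 paternally expressed genes was 0.290, 0.302 and 0.0481 RPKM, lowest in litter 3. The log2 ratio with 0.1 RPKM added was 0.46, 0.38 and 1.74, with a mean of 0.86 ± 0.76. It was above 0 in 3 of 3 litters, with an exact sign-flip p = 0.25 (0.75 after adjustment over the 3 ratios tested). Without litter 3 the mean was 0.42. The groups are named for later tissues, and no allele was measured in these embryos.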

How the data were processed

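Per the labels' protocols, RNA of 3 litters was amplified with SPIA and made into Illumina libraries after shearing of the cDNA. Per the submitters' processing notes, Bowtie was the aligner and mm9 the build, with version and settings not given in the sources used here. Each deposited file holds coverage (signal) as unscaled reads over each base, per the file headers. Coverage split exactly into 72-base alignments on nuclear chromosomes (0 negative starts), and totals were 34014013, 32431630 and 40474940 nuclear alignments in litters 1 to 3.

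Summed coverage of each span was divided by 72 and scaled to RPKM by the nuclear total. The limit for a count of 0 is 3 alignments, which is 0.0274 to 0.0342 RPKM for H19 and 0.000848 to 0.00106 for Igf2r. Flanks were as long as the span on each side. Bins of 200 bases start at the low edge, and the 3 of highest mean level per gene could be named. Bins away from this rule were chosen after their values were seen. Log ratios add 0.1 RPKM and were tested by exact sign flips. The labels do not say how many embryos or mothers made up a litter. Members and lists were chosen with earlier results of these data known. Recovery of starts and levels was run on simulated coverage with starts placed uniformly at random. It checks the computation only, since repeated starts as common as in these data were not simulated. The software was scipy 1.17.1, pandas 2.3.3, numpy 2.4.6 and matplotlib 3.10.9 under Python 3.11.15.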

Additional observations from a re-analysis of the deposited data

How the results depend on the processing

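Of 101 alternative values, 71 kept their direction or stayed within 1 SD (counts within 1.5 times), 29 moved and 1 reversed, and of 114 values without 1 litter, 105 stayed, 8 moved and 1 reversed. No paired analysis was possible because there is 1 group. Distinct start positions, scaled by their own total, raised every level: H19 to 1.40, Igf2 to 0.758, Igf2r to 3.52, Meg3 to 0.106, Dlk1 to 0.227, Peg3 to 0.836 and Peg10 to 0.486 RPKM. With them 2 members were at 1 RPKM in every litter. The share of genome windows was not computed with distinct starts, so this count has no background to be read against. Scaling by all alignments gave 0.298 for H19, 1.46 for Igf2r and 0.0224 for Meg3. With all alignments, 2 members passed at 0.1 RPKM, beside 9.37% of 10 kb windows, and 0 at 2 RPKM, beside 1.93%. The log2 ratio of Meg3 to Dlk1 became 0.15 with 0.01 RPKM added and 0.33 without litter 1. From a depth of 3 the covered share was 14.4% for H19, 4.22% for Igf2, 15.4% for Igf2r, 0.246% for Meg3, 3.71% for Peg3 and 2.82% for Peg10. From a depth of 10 it was 0%, 1.84%, 9.47%, 0%, 2.26% and 0.599% for the same genes. Thinned to the same number of nuclear alignments per litter, H19 had 53.3% and Peg10 17.7%. The share in the 5 highest bins rose to 95.7% for H19 and 53.1% for Meg3 with bins of 500 bases.

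Without 1 litter, mean levels ranged over 0.408 to 0.429 RPKM for H19, 0.201 to 0.399 for Igf2, 1.97 to 2.17 for Igf2r, 0.0300 to 0.0327 for Meg3, 0.00542 to 0.107 for Dlk1, 0.218 to 0.531 for Peg3 and 0.114 to 0.193 for Peg10. The log2 ratio of Meg3 to Dlk1 ranged over -0.48 to 0.33. For Igf2r over its flanks the mean log2 ratio of 1.46 became 3.70 with flanks of 50 kb and 3.86 without the segment of most alignments. With 3 litters no sign-flip test could pass 0.05 under any setting. Levels under 3 alignments, as for Dlk1 in litters 2 and 3, cannot be ordered at this depth.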
